A study of Mus musculus with 12 samples.

Results

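The cytokine and chemokine genes described here are 10 genes taken by name from the 22561 genes of the deposited count table. They are the chemokines Cxcl10, Ccl3, Ccl4 and Ccl22, the interleukins Il6 and Il10, the tumor necrosis factor (TNF) family members Tnf, Lta and Ltb, and the growth factor Tgfb1. All 10 were in the table, and 9 of them passed the filter on low counts and could be tested. The exception was Ccl22.

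RNA was measured in 12 samples of follicular (FO) B cells, which were sorted from the spleen of C57BL6 mice aged 10 weeks by surface markers that included B220hi, AA4.1-, CD23+ and CD21mid. The 4 groups held 3 samples each. One group was unstimulated, and the others received IFNα at 0.1 μg/mL, CpG at 1 μg/mL, or both for 12 h. For the combination, the sources give CpG both as 1 and as 0.1 μg/mL. CpG is a synthetic DNA that is sensed by Toll-like receptor 9, and IFNα is a type I interferon. No other strain or genotype is labelled for any group, and the groups differed in the stimulus. How many mice gave the cells, whether cells of several mice were pooled, and whether the unstimulated cells spent 12 h in culture is not given in the sources used here. The p-values therefore measure the spread between these samples, which may be technical.

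Cytokines and chemokines are the secreted signals through which a B cell acts on other cells. Toll-like receptors signal to many of these genes through the NF-κB and AP-1 families of transcription factors, whereas type I interferon acts through factors that bind the interferon-stimulated response element (ISRE). Resting FO B cells are known for the lymphotoxins, which keep the architecture of the follicle, and activated B cells are known as a source of IL-6, IL-10 and the chemokines that attract T cells.

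RNA was read by BRB (bulk RNA barcoding) sequencing, which counts unique molecular identifiers (UMIs) at the 3′ end of transcripts, so that a count does not grow with the length of the transcript. The total was between 922450 and 2923865 counts per sample, and the deepest sample was replicate 2 of CpG + IFNα. Levels are given as counts relative to the total, in CPM scaled by edgeR's TMM factors (normalized CPM), and 1 count was worth between 0.345 and 1.07 normalized CPM, depending on the sample. All 8 B cell markers of a list, among them Ms4a1 and Cd79a, were detected in each group, and their summed level was between 14663 and 16805 normalized CPM in unstimulated cells, between 13962 and 15810 with IFNα, between 5608 and 5714 with CpG and between 4868 and 5097 with CpG + IFNα. Of 10 myeloid markers 8 were in the table. Lyz2, which defines myeloid cells, had 4, 9 and 3 counts in the unstimulated samples and 0 in the other 9 samples, and Csf1r had 2, 7 and 1 counts in the unstimulated samples and at most 2 elsewhere. Adgre1 had 1, 3 and 1 counts in the unstimulated samples, 8, 11 and 17 with IFNα, 1, 1 and 4 with CpG and 0 in each sample with CpG + IFNα. Itgam, Cd14, S100a8 and Fcgr1 had at most 2 counts in any sample. The summed myeloid level was between 16.8 and 43.9 normalized CPM in unstimulated cells, between 197 and 269 with IFNα, between 8.60 and 9.98 with CpG and between 112 and 134 with CpG + IFNα, of which Mpeg1 made up the larger part in both groups given IFNα. The 6 markers of T and NK cells in the table summed to at most 3.21 normalized CPM in any sample. Of 4 markers of plasmacytoid dendritic cells, Siglech and Klk1 were at 0 in all 12 samples and Ccr9 had between 1 and 13 counts in each. The fourth, Cox6a2, had 0, 1 and 0 counts in the unstimulated samples, 5, 4 and 6 with IFNα, 27, 8 and 13 with CpG, and 35, 45 and 40 with CpG + IFNα, and was called higher with each stimulus (edgeR adjusted p = 0.0247, 1.31e-05 and 3.34e-08). The 4 markers of marginal zone B cells summed to between 58.8 and 91.8 normalized CPM in unstimulated cells, between 26.2 and 46.8 with IFNα, between 118 and 140.3 with CpG and between 123 and 142 with CpG + IFNα. Within this list the members moved in opposite directions with CpG, since Fcrl5 rose (edgeR log2 fold change 2.27, adjusted p = 7.23e-13) and Cd1d1 fell from a mean of 33.7 to 0.442 normalized CPM (adjusted p = 1.04e-11). The 3 markers of B-1 cells summed to between 58.8 and 123 normalized CPM in unstimulated cells, between 84.8 and 181 with IFNα, between 42.4 and 100.5 with CpG and between 83.5 and 136 with CpG + IFNα. With CpG + IFNα against CpG, Zbtb32 rose (edgeR log2 fold change 3.78, adjusted p = 1.95e-12), Spn fell (-1.49, adjusted p = 0.00827) and Bhlhe41 was not called (-0.10, adjusted p = 0.898). The part of other cells in the results below was not tested. In these bulk samples, fewer cells that express a gene and less RNA per cell cannot be told apart.

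The 10 genes fell into sets with different behavior. Cxcl10 followed IFNα, with or without CpG, and was highest with both. Ccl3, Ccl4, Il6, Tnf and Il10 were low in unstimulated cells and with IFNα, and rose with CpG, and of these Ccl4 and Il6 rose further when IFNα was added to CpG. Ltb and Tgfb1 fell with CpG in the presence and absence of IFNα. Lta fell with every stimulus and fell most with IFNα alone. Ccl22 stayed at the detection limit.

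**Figure D1:**
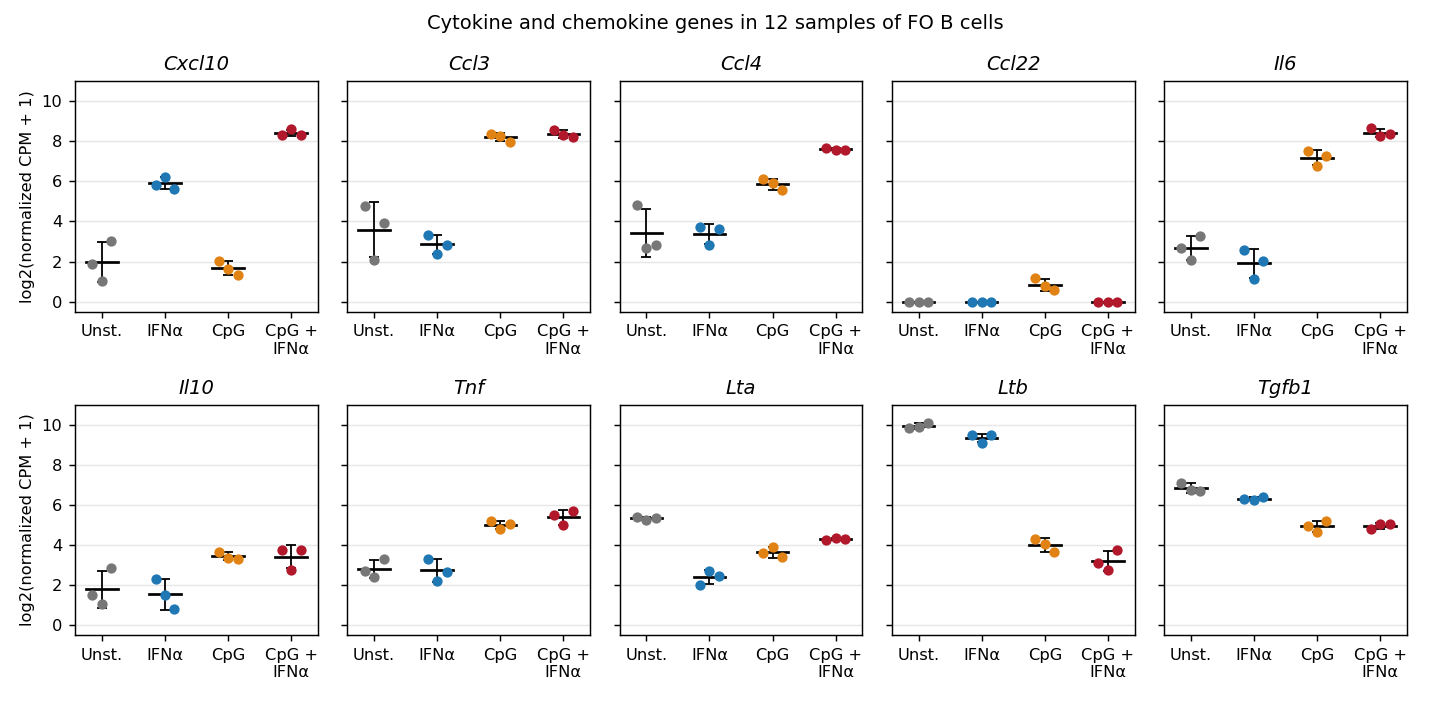
Level of each of the 10 genes in the 12 samples, as log2 of normalized CPM plus 1. Points are samples, and horizontal bars with whiskers are the mean and SD of 3. Cxcl10 is high only in the groups given IFNα, whereas Ltb falls from a mean of 988 normalized CPM in unstimulated cells to 8.61 with CpG + IFNα.

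The detection limit was set at 3 counts in every sample of a group, and a gene was called near the limit in a group where no sample had more than 10 counts. Ccl22 was at the limit in all 4 groups. It had 2, 1 and 1 counts with CpG and 0 in the other 9 samples, and a count of 0 allows up to 3 counts, which was worth between 1.03 and 3.21 normalized CPM in the different samples. Ccl22 encodes a ligand of CCR4 that attracts T cells, and a difference between the groups was not detectable at this depth.

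Near the limit in unstimulated cells were 4 genes, namely Cxcl10, Il6, Il10 and Tnf. With IFNα they were 5, namely Ccl3, Il6, Il10, Tnf and Lta. With CpG only Cxcl10 was near the limit, and with CpG + IFNα no gene was. The counts behind the low levels were small. Il10 had 2, 1 and 7 counts in the unstimulated samples and 4, 3 and 1 with IFNα, Il6 had 6, 3 and 10 and then 5, 2 and 4, and Tnf had 6, 4 and 10 and then 9, 6 and 7. Fold changes from such a base have wide intervals.

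Ltb dominated the pool of these transcripts in resting cells. It held 83.0% ± 3.85 (SD, n = 3) of the UMIs of the 10 genes in unstimulated cells and 79.2% ± 2.67 with IFNα, but 2.54% ± 0.379 with CpG and 0.659% ± 0.279 with CpG + IFNα. With CpG, Ccl3 held 49.1% ± 4.45 and Il6 24.3% ± 4.55. With CpG + IFNα the pool was split between Il6 with 26.1% ± 2.23, Cxcl10 with 25.9% ± 3.59, Ccl3 with 24.9% ± 1.78 and Ccl4 with 14.7% ± 0.290. The summed level of the 10 genes was 1189 ± 96.8 normalized CPM without stimulation, 827 ± 88.4 after IFNα, 600.4 ± 75.5 after CpG and 1319 ± 76.0 after both. Without Ltb the sums were 201 ± 43.8, 171 ± 6.41, 585 ± 72.1 and 1310 ± 77.4 normalized CPM.

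**Figure D2:**
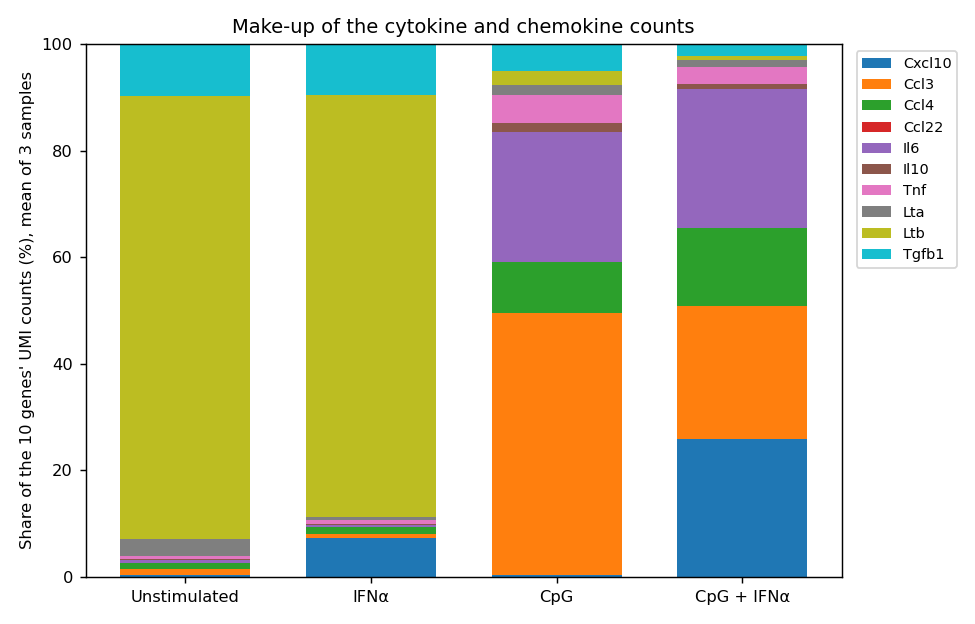
Mean share of each gene among the UMI counts of the 10 genes, in percent, by group (3 samples each). Ltb fills most of the bar in unstimulated cells (83.0%) and with IFNα (79.2%), and Ccl3, Il6, Ccl4 and Cxcl10 fill most of it with CpG + IFNα.

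Which genes each stimulus changed was tested by edgeR's quasi-likelihood test over 9431 genes, with adjusted p-values over all of them. A gene was called changed where its adjusted p was under 0.1 and its log2 fold change over 1 in size. Log2 fold changes are given with ± SE, and levels with ± SD (n = 3). Of the 9 genes tested, 3 were called with IFNα against unstimulated cells, where 8.63% of all genes tested were called. With CpG against unstimulated cells 8 of 9 were called, beside 45.6% of all genes, and with CpG + IFNα against unstimulated cells 9 of 9 were called, beside 45.9%. These comparisons share the same 3 unstimulated samples, so that they are not independent.

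By the labels, IFNα was the difference between the CpG + IFNα and the CpG samples. In that comparison 3 of 9 were called, all of them higher, and 4.96% of all genes tested were called. CpG + IFNα against IFNα called 9 of 9, beside 44.3% of all genes, and CpG against IFNα also 9 of 9, beside 44.1%. The interaction subtracts the log2 effect of IFNα in cells without CpG from that in cells given CpG, and draws on all 4 groups. It called 5 of 9, all with a more positive effect in the presence of CpG, beside 6.26% of all genes. Over the 9 genes the median change on the log2 scale was -0.59 for IFNα, 1.64 for CpG and 2.70 for CpG + IFNα against unstimulated cells, and 0.37 for CpG + IFNα against CpG, while the median of all genes tested lay between -0.04 and 0.00 in these comparisons.

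**Figure D3:**
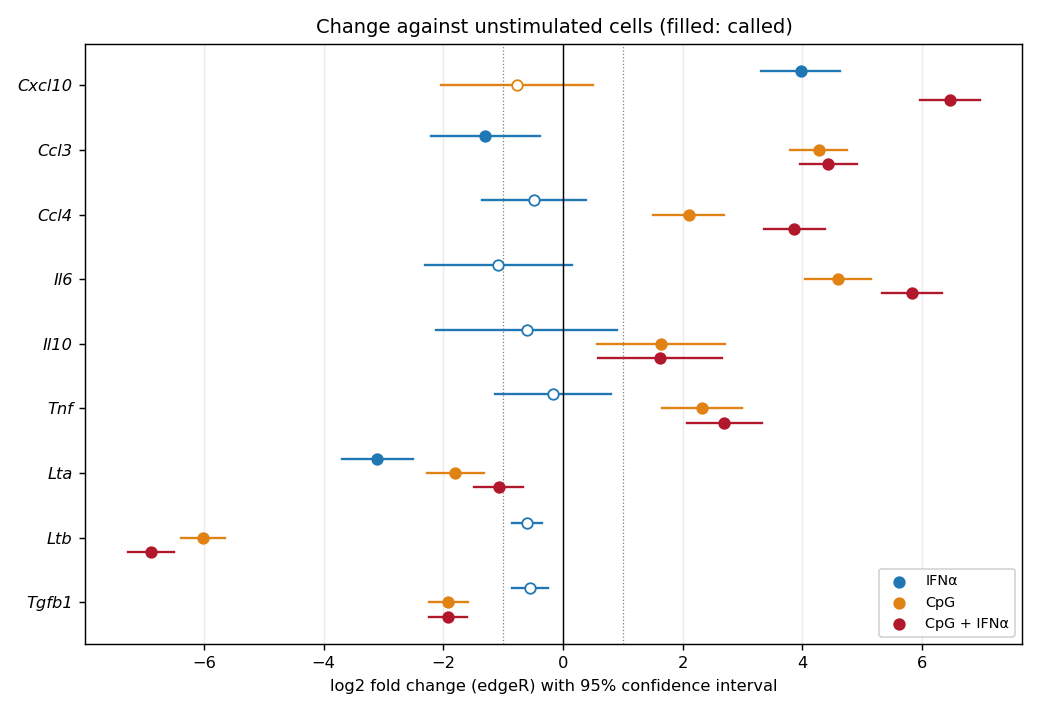
Log2 fold change of the 9 tested genes with IFNα, CpG and CpG + IFNα against unstimulated cells, with 95% confidence intervals from edgeR. Filled points were called, and dotted lines mark a log2 fold change of 1 in either direction. With CpG, Ccl3, Ccl4, Il6, Il10 and Tnf lie to the right and Lta, Ltb and Tgfb1 lie to the left.

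Cxcl10 encodes the interferon-induced chemokine that attracts T cells and NK cells through CXCR3. It had 3, 1 and 8 counts in the unstimulated samples and 5, 3 and 3 with CpG. With IFNα it reached 55.5, 74.2 and 48.8 normalized CPM, and with CpG + IFNα 319, 384 and 319.7. The groups with and without IFNα did not overlap, and the samples with both stimuli all lay above those with IFNα alone.

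The means of Cxcl10 were 3.62 ± 3.09 normalized CPM (SD, n = 3) without stimulation, 59.5 ± 13.1 after IFNα, 2.24 ± 0.791 after CpG and 341 ± 37.1 after CpG + IFNα. Against unstimulated cells the log2 fold change by edgeR was 3.97 ± 0.32 (SE, adjusted p = 7.7e-12) with IFNα and 6.47 ± 0.25 (adjusted p = 3.11e-21) with both. CpG alone gave no call for this gene (log2 fold change -0.77, 95% confidence interval from -2.04 to 0.50, edgeR adjusted p = 0.27). CpG + IFNα was above CpG (edgeR log2 fold change 7.24 ± 0.24, adjusted p = 1.76e-21) and 5.65-fold above IFNα (2.50 ± 0.15, adjusted p = 1.96e-16). Cxcl10 was near the limit with CpG alone, so that the size of the first change rests on a few counts. Adding the changes under the single stimuli to the unstimulated level gave 58.1 normalized CPM, against the 341 measured. Without unstimulated replicate 3, the sample with 8 counts, the log2 fold changes against unstimulated cells were 4.86 with IFNα and 7.41 with both.

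Cxcl10 lies at chr5:92346638-92348889 on the minus strand of GRCm38, inside the span of Art3, which runs on the opposite strand. Art3 had at most 8 counts in any sample, and whether the counting used the strand is not given in the sources used here.

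The 250 bases before the start sites of Cxcl10, which rose with IFNα, and Ccl3, which rose with CpG, are shown as a pair with different responses, from RefSeq on GRCm38.p6. They are chr5:92348890-92349139 for Cxcl10 and chr11:83649379-83649628 for Ccl3, both on the minus strand and written 5′ to 3′. Capitals mark matches, on either strand, to GAAANNGAA (ISRE type), GGANNTTCC (κB type), TGANTCA (AP-1 type), TGACGTCA (CRE) or TATAAA.
Cxcl10: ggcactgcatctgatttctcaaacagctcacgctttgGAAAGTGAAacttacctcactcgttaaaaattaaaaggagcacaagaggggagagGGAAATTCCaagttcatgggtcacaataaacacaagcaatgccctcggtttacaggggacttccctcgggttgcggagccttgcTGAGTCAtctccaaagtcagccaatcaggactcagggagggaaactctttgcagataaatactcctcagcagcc
Ccl3: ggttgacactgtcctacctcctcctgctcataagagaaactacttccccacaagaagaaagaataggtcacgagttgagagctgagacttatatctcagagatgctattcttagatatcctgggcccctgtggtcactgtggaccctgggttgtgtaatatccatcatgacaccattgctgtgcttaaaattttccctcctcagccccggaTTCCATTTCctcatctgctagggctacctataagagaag

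The Cxcl10 window held 1 ISRE type match 213 bases before the start, GAAAGTGAA, then 1 κB type match 158 bases before it, and 1 AP-1 type match 74 bases before it. The Ccl3 window held 1 ISRE type match 39 bases before the start, on the strand opposite to the letters shown, and none of the other letters. Among 32851 promoter windows of this length in the RefSeq table, 7.13% held an ISRE type match, 3.59% a κB type match, 6.75% an AP-1 type match, 1.55% a CRE and 12.4% the letters TATAAA. Windows were found for 8 of the 10 genes, and the matches within them did not overlap each other. A match describes letters only, and binding was not measured.

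Ccl3 and Ccl4, which encode the inflammatory chemokines MIP-1α and MIP-1β, lie 13228 bases apart on chromosome 11 and are read in opposite directions. Ccl3 spans chr11:83647844-83649355 on the minus strand and Ccl4 chr11:83662584-83664683 on the plus strand. Both rose with CpG, but they differed in their response to IFNα on top of it.

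Ccl3 was at 26.4, 3.21 and 14.1 normalized CPM in the unstimulated samples and at 9.08, 4.26 and 6.11 with IFNα. With CpG it was at 327, 308 and 248, and with CpG + IFNα at 377, 314 and 295. The samples with CpG did not overlap those without it, whereas the samples of CpG and CpG + IFNα did overlap. By edgeR, CpG raised Ccl3 by a log2 fold change of 4.28 ± 0.23 (19.4-fold, adjusted p = 6.81e-17) against unstimulated cells. The change with CpG + IFNα against CpG was 0.16, with a 95% confidence interval from -0.14 to 0.46 (edgeR adjusted p = 0.564).

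With IFNα alone Ccl3 was called lower than in unstimulated cells (edgeR log2 fold change -1.29 ± 0.45, adjusted p = 0.04), but the samples overlapped. The call rested on unstimulated replicate 1, which had 29 counts beside 3 and 16 in the other unstimulated samples. Without that sample the log2 fold change was -0.57 (edgeR adjusted p = 0.516), and without IFNα replicate 2 it was -1.02 (adjusted p = 0.158). DESeq2 gave an adjusted p of 0.106. Without unstimulated replicate 1 the rise of Ccl3 with CpG was larger, with a log2 fold change of 5.01, and that with CpG + IFNα was 5.17.

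Ccl4 was at 27.3, 5.35 and 6.18 normalized CPM in the unstimulated samples and at 12.1, 6.08 and 11.4 with IFNα. With CpG it reached 67.5, 59.2 and 45.9, and with CpG + IFNα 203, 189 and 190.2. Its 3 samples with both stimuli were close together and all lay above those with CpG alone. The log2 fold change by edgeR was 2.10 ± 0.29 (adjusted p = 1.35e-07) with CpG against unstimulated cells and 1.76 ± 0.18 (3.40-fold, adjusted p = 1.45e-09) with CpG + IFNα against CpG.

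IFNα alone left Ccl4 without a call (edgeR log2 fold change -0.49, 95% confidence interval from -1.35 to 0.38, adjusted p = 0.477). Unstimulated replicate 1 was again the high sample, with 30 counts beside 5 and 7. Without it the log2 fold change of Ccl4 was 3.30 with CpG, 5.06 with CpG + IFNα and 0.70 with IFNα, all against unstimulated cells. In normalized CPM, the sum of the single changes and the unstimulated level was 54.5 for Ccl4 and 286 for Ccl3, beside measured means with both of 194 ± 8.02 and 329 ± 42.8.

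Il6 encodes a cytokine that supports plasma cell differentiation and the T follicular helper cell response. It was near the detection limit without CpG. CpG brought it to 180, 109 and 151 normalized CPM, and CpG + IFNα to 397, 306 and 331. The samples of these groups did not overlap, although replicate 2 was the lowest in both.

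The mean of Il6 rose from 5.83 ± 2.83 normalized CPM in unstimulated cells to 147 ± 35.6 with CpG, a log2 fold change by edgeR of 4.60 ± 0.27 (24.3-fold, adjusted p = 4.16e-16). With CpG + IFNα it was 345 ± 46.9, which was 2.33-fold above CpG (edgeR log2 fold change 1.22 ± 0.14, adjusted p = 2.29e-08). The lower end of the 95% confidence interval of that change was 0.94 on the log2 scale, and in a test against a fold change of 2 the adjusted p was 0.583. IFNα alone gave 3.10 ± 1.91 normalized CPM without a call (edgeR log2 fold change -1.08, 95% confidence interval from -2.31 to 0.15, adjusted p = 0.234).

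Il10, an anti-inflammatory cytokine made by regulatory B cells, rose far less than Il6. It had 19, 13 and 18 counts with CpG and 23, 17 and 24 with CpG + IFNα, against 2, 1 and 7 in unstimulated cells. In normalized CPM the means were 3.02 ± 2.76 without stimulation, 2.21 ± 1.67 after IFNα, 9.97 ± 1.47 after CpG and 10.2 ± 3.80 after both. The sample with 17 counts came from the deepest library and overlapped the unstimulated samples after scaling.

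By edgeR the log2 fold change of Il10 was 1.64 ± 0.52 (adjusted p = 0.00631) with CpG and 1.62 ± 0.51 (adjusted p = 0.00544) with both, against unstimulated cells. These values were 2.67 and 2.70 without unstimulated replicate 3. Adding IFNα to CpG changed Il10 by a log2 fold change of -0.02 with a 95% confidence interval from -0.73 to 0.70 (edgeR adjusted p = 0.987). Il10 thus stayed close to 10 normalized CPM in both groups given CpG, while Il6 differed between them.

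The 3 genes of the TNF family lie side by side on chromosome 17 of GRCm38. Ltb spans chr17:35194439-35196320 on the plus strand, Tnf chr17:35199381-35202007 on the minus strand and Lta chr17:35203165-35205351 on the minus strand, with 3060 bases between Ltb and Tnf and 1157 bases between Tnf and Lta. Lymphotoxin α acts alone or, together with lymphotoxin β, as a complex on the cell surface that signals through the lymphotoxin β receptor. Although neighbors, the 3 genes did not move together.

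Tnf, the inflammatory cytokine, was at 35.6, 27.1 and 32.5 normalized CPM with CpG and at 43.6, 30.7 and 51.9 with CpG + IFNα. Unstimulated samples lay between 4.28 and 8.82, and samples with IFNα between 3.65 and 9.08. All samples with CpG were thus above all samples without it. The log2 fold change against unstimulated cells by edgeR was 2.32 ± 0.32 (5.01-fold, adjusted p = 1.53e-07) with CpG and 2.70 ± 0.31 (adjusted p = 2.02e-09) with both. Between CpG + IFNα and CpG the samples overlapped and Tnf was not called (edgeR log2 fold change 0.37, 95% confidence interval from -0.03 to 0.77, adjusted p = 0.255).

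Lta was at 40.9, 37.4 and 40.6 normalized CPM in the unstimulated samples. IFNα lowered it to 3.03, 5.47 and 4.58, CpG to 11.1, 14.3 and 9.49, and CpG + IFNα to 18.0, 19.7 and 18.5. None of the 4 groups overlapped another. The order from high to low was unstimulated, CpG + IFNα, CpG and IFNα, so that IFNα alone gave the lowest level and IFNα together with CpG the highest of the stimulated groups.

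Against unstimulated cells the edgeR log2 fold change of Lta was -3.11 ± 0.29 (adjusted p = 2.31e-10) with IFNα, -1.80 ± 0.23 (adjusted p = 3.09e-08) with CpG and -1.08 ± 0.20 (adjusted p = 2.19e-05) with both. The last value stood close to the fold threshold and fell short of it at -0.96 without a filter on low counts and at -0.92 with a filter of 1 CPM. CpG + IFNα against CpG gave 0.72 ± 0.23 (edgeR adjusted p = 0.0414), which did not pass the fold threshold. CpG + IFNα against IFNα gave 2.03 ± 0.30 (edgeR adjusted p = 5.06e-07).

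The windows before the start sites of Tnf, Lta and Il6 are shown because Tnf and Lta are neighbors that moved in opposite directions with CpG, and Il6 rose as Tnf did. They are chr17:35202008-35202257 (minus strand) for Tnf, chr17:35205352-35205601 (minus strand) for Lta and chr5:30012864-30013113 (plus strand) for Il6, with matches to the letters named above in capitals.
Tnf: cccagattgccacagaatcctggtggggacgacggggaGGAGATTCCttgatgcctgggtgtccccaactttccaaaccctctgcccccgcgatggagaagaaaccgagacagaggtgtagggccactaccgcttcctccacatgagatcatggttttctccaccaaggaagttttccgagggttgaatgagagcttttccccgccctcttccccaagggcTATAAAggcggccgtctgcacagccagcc
Lta: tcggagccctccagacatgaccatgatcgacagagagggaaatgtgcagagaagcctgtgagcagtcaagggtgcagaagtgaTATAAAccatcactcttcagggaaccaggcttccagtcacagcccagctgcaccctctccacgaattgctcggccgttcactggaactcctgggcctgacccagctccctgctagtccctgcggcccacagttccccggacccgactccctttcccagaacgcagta
Il6: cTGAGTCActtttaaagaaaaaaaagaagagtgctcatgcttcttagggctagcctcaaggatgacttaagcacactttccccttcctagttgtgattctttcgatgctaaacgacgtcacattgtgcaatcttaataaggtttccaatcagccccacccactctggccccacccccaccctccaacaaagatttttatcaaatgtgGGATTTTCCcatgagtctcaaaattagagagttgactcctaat

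Tnf held 1 κB type match 212 bases before the start and TATAAA 29 bases before it, and Il6 held 1 κB type match 43 bases before the start and 1 AP-1 type match 249 bases before it. Lta held TATAAA 167 bases before the start and no κB type match in this window. Ltb, which fell, also held 1 κB type match, on the strand opposite to the gene and 87 bases before its RefSeq start. As given above, Cxcl10, not called with CpG, held a κB type match too, and Ccl3, which rose, held none. Whether any match bears on a response was not tested. The windows of Ccl22 and Tgfb1 held none of the 5 sets of letters.

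Ltb was the most abundant of the 10 genes in resting cells and showed the largest fall. It was at 910.0, 951 and 1102 normalized CPM in the unstimulated samples and at 707, 552 and 709 with IFNα. CpG left 19.0, 15.7 and 11.5, and CpG + IFNα 7.64, 5.86 and 12.3. The samples with CpG lay far below all others and overlapped between the groups with and without IFNα.

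With CpG, Ltb fell 64.8-fold against unstimulated cells (edgeR log2 fold change -6.02 ± 0.18, adjusted p = 1.63e-23), and with CpG + IFNα 118-fold (-6.88 ± 0.19, adjusted p = 1.24e-24). With IFNα alone the mean was 656 ± 90.1 normalized CPM against 988 ± 101, without overlap of the samples (edgeR log2 fold change -0.59 ± 0.12, adjusted p = 0.000477), which did not pass the fold threshold. CpG + IFNα against CpG gave -0.86 ± 0.29 (edgeR adjusted p = 0.0487), again short of it. Without CpG replicate 3 that value was -1.07, and without CpG + IFNα replicate 3 it was -1.20, and both of these passed the thresholds.

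Tgfb1 encodes transforming growth factor β1, which restrains lymphocytes and directs class switching to IgA. Its levels were 137, 105 and 103 normalized CPM in the unstimulated samples, 77.7, 76.0 and 83.2 with IFNα, 30.1, 24.2 and 35.9 with CpG, and 26.7, 31.7 and 32.4 with both. CpG + IFNα and CpG overlapped, and each of the other pairs of groups was separate. The fall with CpG was 3.77-fold by edgeR (log2 fold change -1.91 ± 0.16, adjusted p = 3.7e-12) and that with both was 3.78-fold (log2 fold change -1.92 ± 0.16, adjusted p = 1.07e-12). With IFNα the log2 fold change of Tgfb1 was -0.55 ± 0.15 (edgeR adjusted p = 0.00705), short of the fold threshold. Adding IFNα to CpG gave -0.01, with a 95% confidence interval from -0.37 to 0.36 (edgeR adjusted p = 0.992). Tgfb1 spans chr7:25687002-25705077 on the plus strand.

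Whether IFNα acted differently in the presence of CpG was tested by the interaction. The difference between its effect with and without CpG was largest for Lta (log2 3.83 ± 0.38, edgeR adjusted p = 9.56e-09), whose fall with IFNα alone had no counterpart in cells given CpG. For Cxcl10 the difference was 3.27 ± 0.69 (edgeR adjusted p = 0.00174), for Il6 2.30 ± 0.63 (0.0158), for Ccl4 2.25 ± 0.47 (0.00144) and for Ccl3 1.46 ± 0.47 (0.0481). Tgfb1, Il10, Tnf and Ltb were not called, with log2 differences of 0.54, 0.59, 0.54 and -0.27.

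Apart from that of Lta, each call of the interaction was lost without 1 of the unstimulated samples, the one with the most counts of that gene in its group. Without unstimulated replicate 1 the difference was 0.73 for Ccl3 (edgeR adjusted p = 0.462) and 1.07 for Ccl4 (0.254). Without unstimulated replicate 3 it was 2.42 for Cxcl10 (edgeR adjusted p = 0.148) and 1.94 for Il6 (0.141). Without IFNα replicate 2 Ccl3 gave 1.18 (edgeR adjusted p = 0.141). Either of the first 2 omissions left 3 of the 5 calls. The 5 genes kept a positive difference in each of these fits, and Lta was called in all 12 fits that left out a sample.

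**Figure D4:**
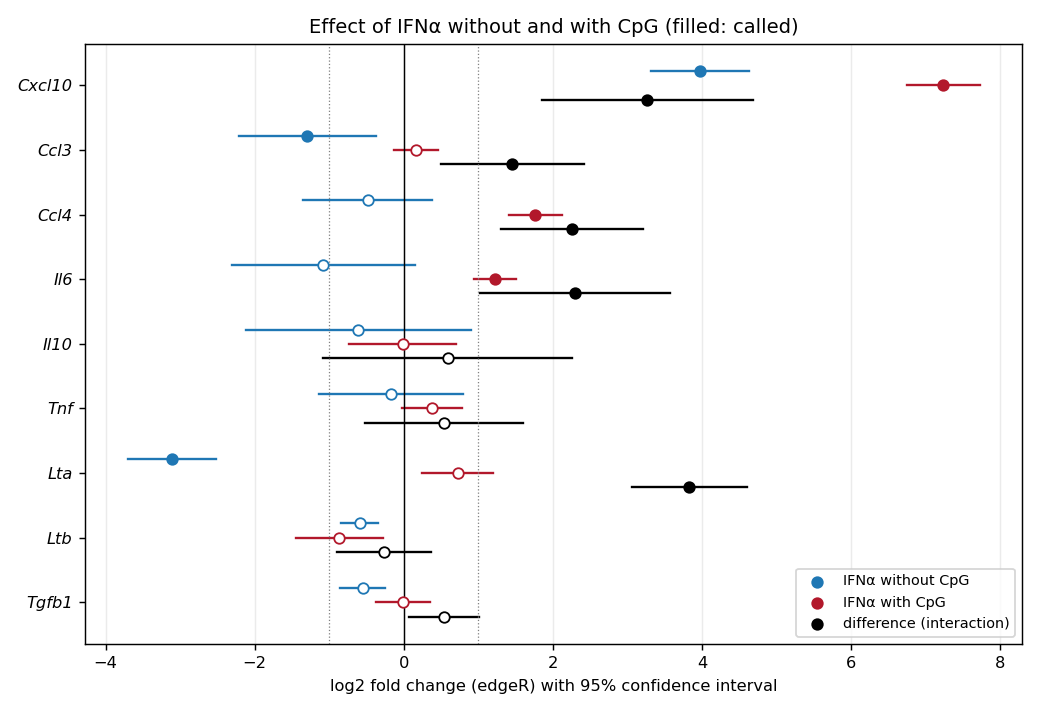
Effect of IFNα on the 9 tested genes without CpG (against unstimulated cells), with CpG (against CpG) and the difference between both (interaction), as log2 fold changes with 95% confidence intervals from edgeR. Filled points were called. Lta moves from -3.11 without CpG to 0.72 with CpG, and Cxcl10 from 3.97 to 7.24.

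Levels in the 4 groups could be ordered for each gene. For Cxcl10 the order was CpG + IFNα, IFNα, unstimulated and CpG, and the last 2 overlapped and were not called different. For Ccl4 and Il6 it was CpG + IFNα, CpG, unstimulated and IFNα, with only the last 2 not called different. For Ccl3, Il10 and Tnf the order was the same, but the first 2 did not differ by call, and the last 2 differed by call only for Ccl3. For Ltb and Tgfb1 the 2 groups without CpG were above those with CpG, and neither the upper nor the lower pair was called different, although the unstimulated samples of both genes lay above those with IFNα. For Lta the order was unstimulated, CpG + IFNα, CpG and IFNα, with CpG + IFNα and CpG not called different.

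The genes whose pattern over the 12 samples was most like that of each member were found by Pearson correlation of log2(normalized CPM + 1). Since the samples fall into 4 groups, these values mostly describe the group levels, and no p is given. Cxcl10 was most like Mlkl (r = 0.962), which encodes the executor of necroptosis, Ddx24 (0.958) and Phf11a (0.958). Ccl4 was most like Zfp91 (0.968), Kif5b (0.962) and Ppp1r11 (0.959), and Lta was most like Tra2a (0.961), Ehd1 (0.960) and Sik1 (0.947).

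Il6 was most like Hsp90aa1 (r = 0.993), the chaperone, Top1 (0.993), the topoisomerase, and Rangap1 (0.993). Hsp90aa1 was also among the nearest to Tnf (0.988), with Anp32b (0.988) and Wdr46 (0.986). For Ccl3 the nearest were Wdr5 (0.996), Snu13 (0.993) and Slc35a4 (0.991). Il10, with its low counts, reached 0.953 with Gm6139, 0.941 with Actn4 and 0.934 with Znhit3. On the falling side, Ltb was most like Tgfbr2 (0.998), which encodes a TGFβ receptor, Zfp831 (0.997) and H2-Oa (0.997), and Tgfb1 was most like Tpm4 (0.989), Zfp36l1 (0.989) and Pde7a (0.987). Genes with r above 0.95 numbered 893 for Ltb, 657 for Il6, 533 for Ccl3, 529 for Tnf and 437 for Tgfb1. The genes named for these members are therefore not particular to them. For Ccl4, Cxcl10, Lta and Il10 there were 9, 5, 2 and 1 such genes.

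Receptors of the 10 cytokines were read from a list of 16 genes, of which 9 could be tested and 8 are described here. None of the 8 was called with IFNα alone. Against unstimulated cells, 5 of the 8 fell and none rose with CpG, and 4 fell and none rose with CpG + IFNα. Of all genes tested 25.5% fell and 20.1% rose with CpG, and 25.6% fell and 20.3% rose with CpG + IFNα. Il6ra, the α chain of the IL-6 receptor, fell from 54.8 ± 3.75 to 3.21 ± 0.309 normalized CPM with CpG and 1.34 ± 0.975 with both (edgeR log2 fold change -4.08 with CpG, adjusted p = 2.71e-14), in the groups in which Il6 itself rose. Tgfbr2 fell from 255 ± 22.5 to 59.1 ± 2.83 with CpG (edgeR log2 fold change -2.11, adjusted p = 1.33e-15), and Il10ra from 72.3 ± 14.5 to 19.6 ± 5.55 (-1.91, adjusted p = 3.76e-10). Il10rb (-1.22) and Tnfrsf14 (-1.21) fell as well.

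Genes that govern the stability of cytokine mRNA were read from a list of 13, all of which were tested. With CpG 5 fell and 2 rose against unstimulated cells, and the same counts were found with CpG + IFNα, where 45.6% and 45.9% of all genes tested were called. The share called among the 13 was thus near that of all genes, and the single genes are given for their size. Zfp36 encodes tristetraprolin, which binds AU-rich elements of cytokine mRNAs and promotes their decay. It fell from 772 ± 73.3 normalized CPM in unstimulated cells to 253 ± 6.95 with IFNα, 12.2 ± 3.45 with CpG and 13.4 ± 1.24 with both (edgeR log2 fold change with CpG -5.95, adjusted p = 1.12e-24). Its relatives Zfp36l1 (-3.32) and Zfp36l2 (-3.42) fell with CpG too, as did Zc3h12d (-2.88), which encodes a Regnase family protein, and Arid5a (-1.90), which encodes a protein that stabilizes Il6 mRNA.

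Hnrnpd, which encodes the AU-rich element binding protein AUF1, rose by a log2 fold change of 1.54 with CpG by edgeR (adjusted p = 4.32e-13), and Zc3h12c rose by 1.67 (adjusted p = 0.000343). With IFNα alone, where 4.07% of all genes tested fell, 3 of the 13 fell, namely Zfp36 (-1.61), Zfp36l2 (-1.49) and Zc3h12a (-1.05), which encodes Regnase-1. In CpG + IFNα against CpG 1 of the 13 was called, Zc3h12d (edgeR log2 fold change -1.23, adjusted p = 0.00774), which is a share near the 4.96% of all genes tested. RNA stability itself was not measured.

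**Figure D5:**
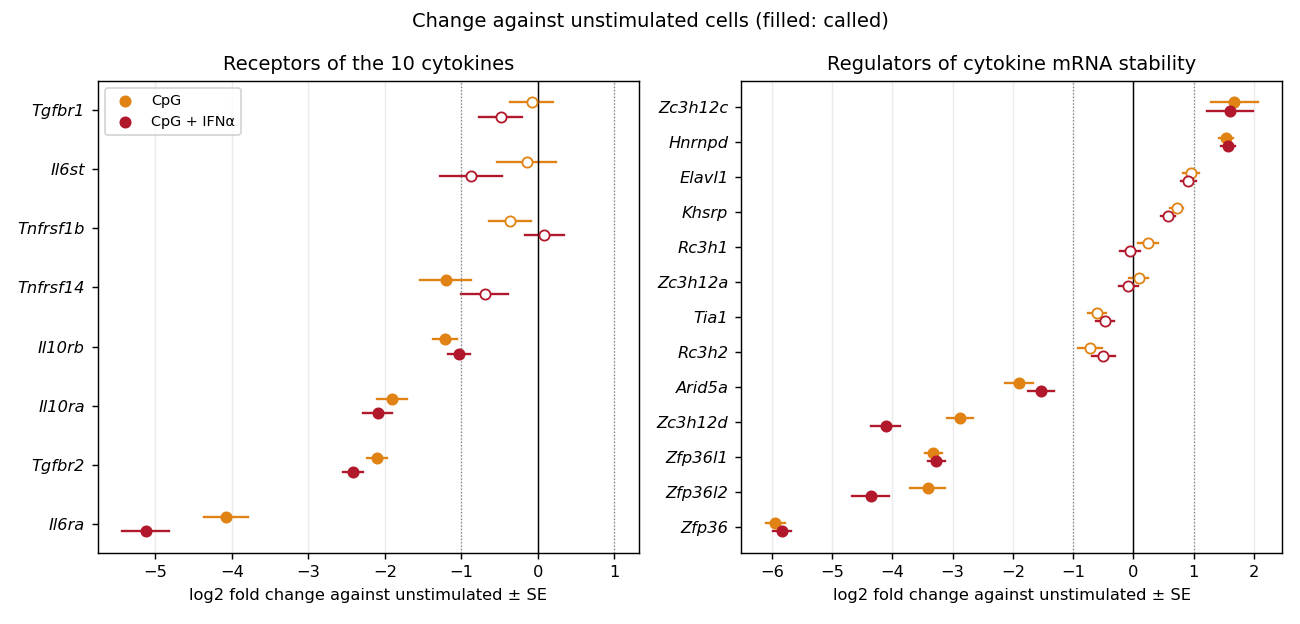
Log2 fold change by edgeR with CpG and with CpG + IFNα against unstimulated cells, with SE, for 8 tested receptors (left) and the 13 regulators of mRNA stability (right). Filled points were called. Zfp36 and Il6ra fell most in their panels.

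Genes for the release and activation of cytokines were read from a list of 12, of which 7 were tested. Against unstimulated cells, CpG lowered 3 and raised none, and CpG + IFNα lowered 4 and raised none. With CpG 45.6% of all genes tested were called, near the share of these 7, and with CpG + IFNα 45.9%. Furin encodes a protease that cleaves the precursor of TGFβ1. It was at 46.2 ± 2.01 normalized CPM without stimulation, 33.8 ± 4.41 with IFNα, 30.4 ± 0.287 with CpG and 67.3 ± 1.42 with both, and was the 1 of the 7 called in CpG + IFNα against CpG, where 4.96% of all genes tested were called (edgeR log2 fold change 1.14, adjusted p = 3.68e-07). Dpp4, which encodes a protease that shortens CXCL10, was called higher with IFNα alone (edgeR log2 fold change 1.11, adjusted p = 3.43e-08) and was not called with CpG + IFNα against CpG (-0.29, adjusted p = 0.193). Nrros, which encodes an anchor of latent TGFβ1, fell by a log2 fold change of -1.77 with CpG (edgeR adjusted p = 1.5e-12), and Adam17, which encodes the sheddase of TNF, changed by -0.70 (adjusted p = 0.000436), short of the fold threshold. The others called with CpG were Rhbdf2 (-1.81) and Itgav (-1.36), and Adam10 was called lower with CpG + IFNα (-1.31).

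To set the 10 genes among their kind, 100 other cytokine and chemokine genes were listed. Of these 62 were in the table, 52 had a count in any sample, 26 had more than 3 counts in a sample, and 9 were tested. With CpG 2 of the 9 were called higher than in unstimulated cells (Il1rn and Mif) and 6 lower (Il12a, Il16, Tnfsf10, Csf1, Clcf1 and Flt3l), and with IFNα 2 were called higher (Csf1 and Tnfsf10) and 1 lower (Ebi3). Il1rn, Tnfsf10 and Csf1 were at or near the limit both with CpG and without stimulation, as was Ebi3 with IFNα and without stimulation. Of all genes tested 45.6% were called with CpG and 8.63% with IFNα. Csf1, a growth factor of macrophages, followed IFNα as Cxcl10 did. It was at 5.60 ± 1.40 normalized CPM without stimulation, 30.6 ± 0.960 with IFNα, 0.570 ± 0.514 with CpG and 25.4 ± 2.89 with both, and unlike Cxcl10 it was not called different between both stimuli and IFNα alone (edgeR log2 fold change -0.26, adjusted p = 0.255). Tnfsf10, which encodes TRAIL, was at 4.56 ± 3.70, 17.7 ± 1.47, 0.166 ± 0.288 and 7.40 ± 2.10 normalized CPM in the same order.

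Il1rn, the antagonist of the IL-1 receptor, was at 0.303 ± 0.525 normalized CPM without stimulation, 0.742 ± 0.651 after IFNα, 1.88 ± 0.968 after CpG and 8.81 ± 1.95 after both. It had 1, 0 and 0 counts without stimulation and 2, 2 and 6 with CpG, and was called higher with CpG (edgeR adjusted p = 0.0596). It passed the filter only through its 16, 20 and 21 counts with CpG + IFNα. The call with CpG thus rests on a few counts, and comparisons with CpG + IFNα were favored by the filter. Mif rose from 170 ± 29.9 to 775 ± 61.5 normalized CPM with CpG (edgeR log2 fold change 2.19, adjusted p = 2.42e-16). Il16 fell from 237 ± 9.11 to 17.2 ± 3.15 with CpG (edgeR log2 fold change -3.80, adjusted p = 4.01e-20), and Flt3l (-3.57), Il12a (-1.59) and Clcf1 (-1.24) fell too. Ebi3, which encodes a subunit of IL-27, was called lower with IFNα alone (edgeR log2 fold change -1.63, adjusted p = 0.0519) and was not called with CpG (0.65, adjusted p = 0.16). In CpG + IFNα against CpG, Csf1 (edgeR adjusted p = 8.54e-12), Tnfsf10 (adjusted p = 2.05e-05) and Il1rn (adjusted p = 0.00268) were called higher and none of the 9 lower, beside 2.95% of all genes tested called higher and 2.01% lower. No fold is given for them, since they had few counts with CpG alone.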

How the data were processed

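By the study's methods, the authors extracted barcodes with UMI-tools 1.1.2, trimmed reads with Trim Galore 0.6.7, mapped them to GRCm38 with HISAT2 2.2.1, assigned them with featureCounts 2.0.1, and deposited UMI counts per gene without normalization. Counts of 12 samples, 3 in each of 4 groups, were used. TMM factors were computed with edgeR 4.0.16 (R 4.3.3), 9431 genes were kept by filterByExpr, and a single model was fitted to all samples with glmQLFit and glmQLFTest (Benjamini-Hochberg adjustment). The genes and lists were chosen with earlier results of these data known. Every member is named. Genes of a list are named where called, except that some results that fall under this rule are not reported here, and for each member the 3 genes with the highest correlation. Positions are from GENCODE M21, and promoter letters from RefSeq. Alternatives covered normalization, filters, thresholds, DESeq2 1.42.0, dispersion, samples in the fit, depth, abundant genes, blocking on the replicate number, and omission of each sample. Intervals and limits of single counts cover counting error only. No sample was a copy of another, since the chi-square of replicate pairs was between 1.90 and 6.31 times its degrees of freedom.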

Additional observations from a re-analysis of the deposited data

Results flagged for a closer look

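For 5 genes the effect of IFNα with CpG differed from its effect without CpG, by the interaction term of edgeR's quasi-likelihood test over 9431 genes. The log2 difference was 3.27 for Cxcl10 (adjusted p = 0.00174), 1.46 for Ccl3 (adjusted p = 0.0481), 2.25 for Ccl4 (adjusted p = 0.00144), 2.30 for Il6 (adjusted p = 0.0158) and 3.83 for Lta (adjusted p = 9.56e-09). Of all genes tested 6.26% were called in the same way. The difference for Lta was called in each of the 12 fits that left out a sample, while that for Ccl3 and Ccl4 was lost without unstimulated replicate 1, that for Ccl3 also without IFNα replicate 2, and that for Cxcl10 and Il6 without unstimulated replicate 3. Under DESeq2 the difference for Ccl3 had an adjusted p of 0.23.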

How the results depend on the processing

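Of 735 fold changes of the 9 tested genes under 14 alternative settings, 690 kept their direction and call, 27 lost the call, 2 gained it and 16 changed sign. Of 648 with 1 sample left out, the counts were 626, 7, 2 and 13. Under these settings the number of the 9 genes called was between 2 and 4 with IFNα (3 as reported), between 5 and 8 with CpG (8) and between 6 and 9 with CpG + IFNα (9) against unstimulated cells, between 1 and 3 with CpG + IFNα against CpG (3), between 8 and 9 against IFNα (9), and between 2 and 5 for the interaction (5). The counts of 5 with CpG and 1 with CpG + IFNα against CpG came with a log2 fold change over 2, and that of 2 for the interaction with a test against a fold change of 2. Over all genes, a log2 fold change over 2 gave 251, 1677, 1826, 165, 1698 and 155 calls against 814, 4303, 4329, 468, 4175 and 590 (in the order IFNα, CpG and CpG + IFNα against unstimulated cells, then CpG + IFNα against CpG, CpG + IFNα against IFNα, and the interaction), and a test against a fold change of 2 gave 324 calls with IFNα, 195 with CpG + IFNα against CpG and 98 for the interaction. Leaving out 1 sample gave between 3 and 5 calls of the interaction among the 9 genes.

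No sign changed in a called value. Il10 with CpG + IFNα against CpG (log2 fold change -0.02) was 0.00335 with DESeq2 size factors, 0.0439 without a filter, 0.0248 with a filter of 1 CPM, 0.0388 with DESeq2, 0.00554 with only the groups compared, 0.0172 without mitochondrial and rRNA genes and 0.0283 with the replicate block. Tgfb1 in the same comparison was 0.0142, 0.0559, 0.0375, 0.0169, 0.0239, 0.0285 and 0.0104 in the same order. With each sample drawn down to the lowest total, Tnf with IFNα was 0.157 and the interaction of Tgfb1 was -0.0108, the call of Ccl3 with IFNα was lost (-0.99), and Ccl4 (-1.13) and Il6 (-1.70) were called lower with IFNα. Leaving out 1 sample gave -0.885 to 0.696 for Ccl4, -1.17 to 0.416 for Il10 and -0.503 to 0.156 for Tnf with IFNα, -1.12 to 0.128 for Cxcl10 with CpG, -0.193 to 0.321 for Il10 and -0.129 to 0.155 for Tgfb1 with CpG + IFNα against CpG, and -0.390 to 1.15 for Il10 and -0.606 to 0.00104 for Ltb in the interaction. The cause was not tested.

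The labels number the replicates, but nothing says that a number is shared between groups. Over 18 pairs of samples with the same number the correlation of deviations was between -0.065 and 0.201, and 5 were over 0.1. Among the 3 stimulated groups all 9 such pairs were positive (0.00904 to 0.201) and the 5 were among them, of which all 3 of replicate 1, while the 9 with an unstimulated sample were between -0.065 and 0.0473. With the unstimulated group counted, no sample correlated best with its own number in every other group. Within the 3 stimulated groups, each sample except CpG replicate 3 correlated best with its own number in both other groups. CpG replicate 3 correlated more with IFNα replicate 2 (0.0472) than with IFNα replicate 3 (0.00904). Whether a number marks a shared source in the stimulated groups was not tested, and the main fit did not pair the samples. With the replicate block the members called were 3, 8, 9, 3, 9 and 5, as without it, and all genes called were 820, 4305, 4346, 472, 4175 and 627. Depth limits the genes near 10 counts, for which a few counts in 1 sample set the fold change.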

Other observations

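Among the other cytokine genes, some were too low to be tested and are given as counts, chosen after their values were seen. Il12b, a subunit of IL-12, had 6, 14 and 4 counts with CpG + IFNα, 0, 2 and 1 with CpG, and 0 in the 6 samples without CpG. Tnfsf15, which encodes TL1A, had 3, 15 and 9 counts with CpG + IFNα and at most 2 in any other sample. Tnfsf4, which encodes the ligand of OX40, had 5, 9 and 3 counts with CpG + IFNα and at most 2 in any other sample. Ccl5, a chemokine that attracts T cells, had 6, 23 and 2 counts with CpG + IFNα and at most 4 elsewhere. Tgfb3 had 12, 3 and 2 counts in unstimulated cells, 6, 11 and 5 with IFNα, and at most 1 with CpG or CpG + IFNα. Il24 had 5, 9 and 7 counts in unstimulated cells, 2, 3 and 3 with IFNα, 1, 0 and 1 with CpG and 0 in each sample with both. The second sample of CpG + IFNα was the deepest, and no test was run on these genes.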
